A study of Mus musculus with 2 samples.

Results

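The 9 complement genes C1qa, C1qb, C1qc, C3, C4b, Cfb, Cfi, Serping1 and Cd59a were followed through the cells of mouse eyes. They were chosen by name as rows of both deposited matrices, and each of the 9 was found once among the 32286 features listed. Single-cell RNA was measured in the optic cup of mice of the Abca4KO genotype, which lack Abca4, a retinoid transporter of photoreceptors whose loss in people causes Stargardt disease. Eyes were injected under the retina, in each mouse one with a vector labelled AAV2.8-Sponge.mir181, made to soak up miR-181a and miR-181b, and the contralateral one with a control labelled AAV2.8-GFP. Mice were injected at 2 months of age. The series puts collection 4 months after that, but the age on the sample labels is 4 months. Each condition is 1 library of an unstated number of mice, and no uninjected eye or mouse with intact Abca4 was analysed here. No test was therefore possible, and every interval below covers counting error alone.

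Complement is a cascade of blood and tissue proteins that tags cells and debris for removal. In the classical pathway the recognition protein C1q, built from the chains encoded by C1qa, C1qb and C1qc, activates the proteases C1r and C1s, which cleave C4 and C2 and so lead to the cleavage of C3. Factor B, encoded by Cfb, forms the C3 convertase of the alternative pathway. C1 inhibitor (Serping1) blocks C1r and C1s, factor I (Cfi) degrades the active fragments of C3 and C4, and CD59 (Cd59a) stops assembly of the membrane attack complex. In the retina, microglia are the known source of C1q, and C3 and C4 are known to be made by reactive glia.

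Both microRNAs aimed at by the sponge carry the same seed, the bases (2 to 8, in capitals) that pair with a target. They are shown with the only stretch of a member's annotated 3′ untranslated region that matches this seed, in Cd59a on chromosome 2, where capitals mark the match. Mature sequences are those of RefSeq for the mouse.
miR-181a-5p: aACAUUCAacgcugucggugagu
miR-181b-5p: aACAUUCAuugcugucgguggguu
Cd59a site: tgagctggtgtgTGAATGTtcca
The match begins at base 435 of the 1174 bases of the untranslated region (GENCODE M21). Of the 9 members 1 holds such a match, against 16.97% of 21166 genes with an annotated region. A match is a description of these letters and does not show pairing.

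The deposited matrices counted 132067896 UMIs (unique molecular identifiers, 1 per captured transcript) over 23267 barcodes in the library labelled sponge, and 123040365 over 39461 barcodes in the library labelled GFP. After filtering, 23200 cells with a median of 2980.5 UMIs were kept in the library labelled sponge, and 39285 cells with a median of 2415 UMIs in the library labelled GFP. The eGFP sequence had 5484 UMIs in the library labelled sponge and 12 in the library labelled GFP, so the labels are kept below as labels and each direction rests on them. Abca4 transcripts were counted (7383 UMIs in the library labelled sponge and 8855 in the library labelled GFP), but a 3′ tag count does not check the knockout. Of the kept barcodes 287 occurred in both libraries, 1.24% of those in the library labelled sponge and 0.731% of those in the library labelled GFP. Cells were grouped into 20 classes and clusters with at least 50 cells in each library. Of these, 13 were named for the cell type their markers resembled and 7 stayed unnamed. In each named class, Müller clusters 3 and 9 included, the summed level of the type's own markers was higher in the library labelled sponge. In microglia and macrophages the 10 rod markers summed to 5143 CPM (UMIs of a gene scaled to the same class total in both libraries) in the library labelled sponge and 7336 CPM in the library labelled GFP, which gauges the free RNA that droplets of other cells carried. In rods themselves they summed to 21650 CPM in sponge-labelled and 17700 CPM in GFP-labelled cells. The part of free RNA in the results below was not tested.

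Over all kept cells, the C1q chains were the members that differed most between the libraries. C1qa had 137.4 CPM in the library labelled sponge and 60.8 CPM in the library labelled GFP, a log2 ratio of 1.18 (95% counting interval 1.14 to 1.22). C1qb had 70.3 CPM in the sponge-labelled and 33.7 CPM in the GFP-labelled library, and C1qc had 51.7 CPM in sponge-labelled and 27.3 CPM in GFP-labelled cells. C4b, the mouse C4 gene, was also higher in the library labelled sponge, with 61.6 CPM against 36.3 CPM in the library labelled GFP. C3 was lower, with 7.75 CPM in the library labelled sponge and 11.6 CPM in the library labelled GFP. The regulators lay close to parity: Serping1 had 65.7 CPM in the sponge-labelled and 70.2 CPM in the GFP-labelled library, Cd59a had 72.2 CPM in sponge-labelled and 65.7 CPM in GFP-labelled cells, and Cfi had 2.27 CPM in sponge-labelled and 2.58 CPM in GFP-labelled cells. Cfb had 1.88 CPM in the library labelled sponge and 2.16 CPM in the library labelled GFP. Thus 2 of the 9 members were at least 2-fold higher in the library labelled sponge, where 3.48% of the 22929 measured genes were, and 0 were at least 2-fold lower, where 2.73% of genes were. The median log2 ratio was 0.13 over the members and 0.03 over all measured genes. These totals mix a change per cell with a change in which cells were captured, so the classes are described one by one. Since each UMI stands for 1 transcript whatever its length, CPM were compared between genes without a correction for length.

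**Figure D1:**
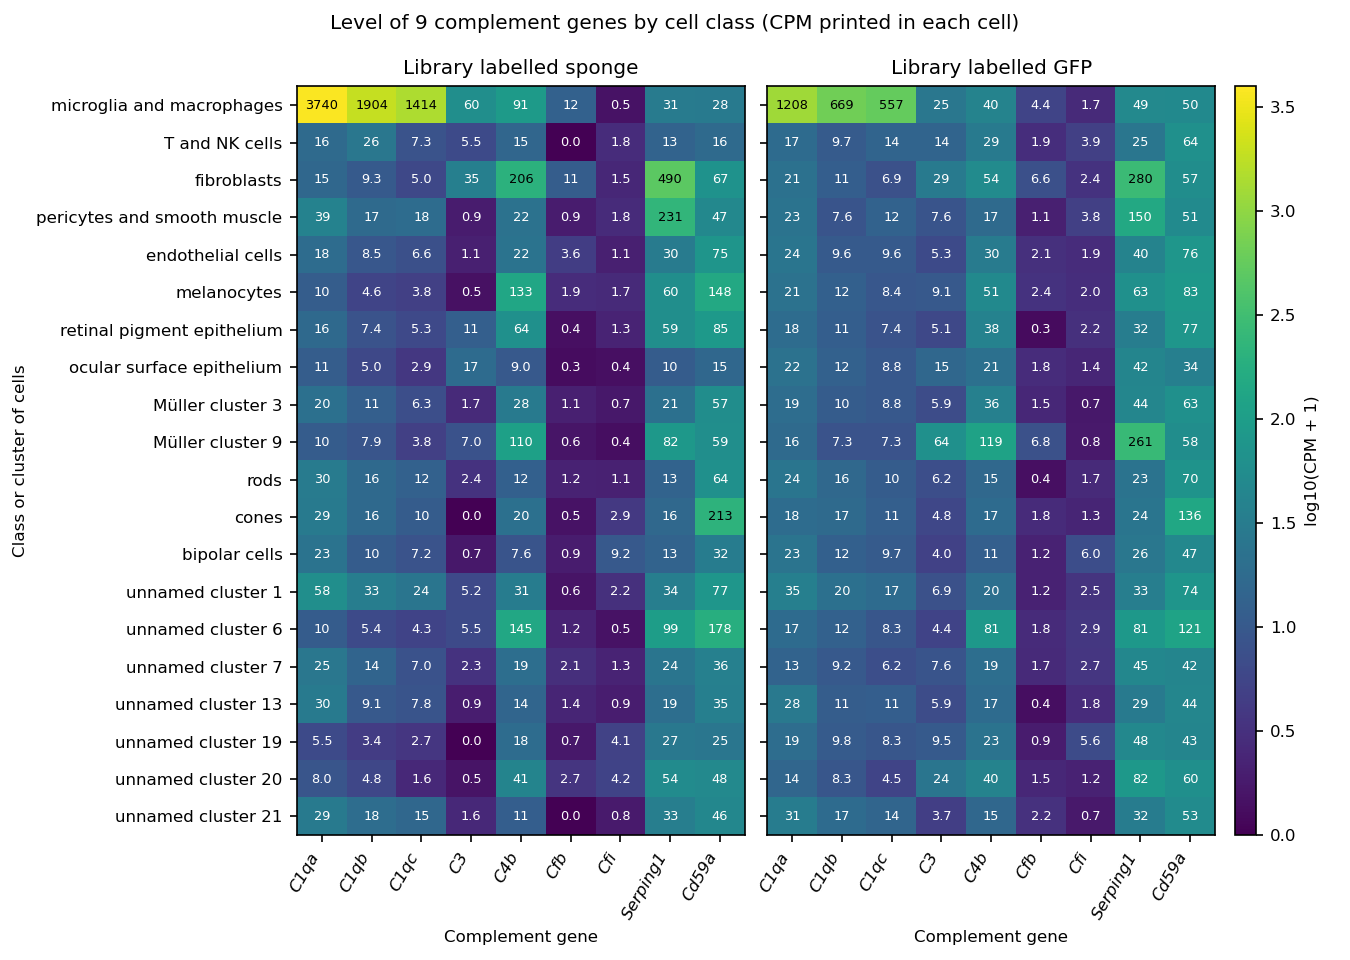
Level of each complement gene (columns) in 20 classes and clusters of cells (rows), as CPM printed in each square and coloured by log10(CPM + 1), for the library labelled sponge on the left and the library labelled GFP on the right. The C1q chains peak in microglia and macrophages in both panels, whereas C4b and Serping1 are spread over stromal, pigmented and glial classes. Cd59a is present in every row and highest in cones.

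C1q came from microglia and macrophages, and its 3 chains stood 2.54-fold to 3.1-fold higher there in the library labelled sponge. This class, in which all 14 of its markers were detected, held 712 cells (3.07%) in the library labelled sponge and 1185 cells (3.02%) in the library labelled GFP. C1qa had 3739.8 CPM in the sponge-labelled and 1208 CPM in the GFP-labelled microglia, a log2 ratio of 1.63 (1.58 to 1.68). C1qb had 1904 CPM in sponge-labelled and 668.7 CPM in GFP-labelled cells (log2 ratio 1.51, 1.45 to 1.57), and C1qc had 1414 CPM in sponge-labelled and 556.5 CPM in GFP-labelled cells (log2 ratio 1.34, 1.27 to 1.42). All intervals lay above 0, and the sponge-labelled library was the higher one for every chain. The class held 85.9%, 85.6% and 86.4% of all C1qa, C1qb and C1qc UMIs in the library labelled sponge, and 66.1%, 66.1% and 67.9% in the library labelled GFP. Of the UMIs of all genes it held 3.16% in the sponge-labelled and 3.33% in the GFP-labelled library. The C1q chains together took 0.706% of the UMIs of the class in the library labelled sponge and 0.243% in the library labelled GFP.

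The 3 chains lie next to each other on the minus strand of chromosome 4 in mm10: C1qb at chr4:136880129-136886187, C1qc at chr4:136889804-136893065 and C1qa at chr4:136895917-136898803. Because they moved together, the promoters that RefSeq gives for members of the cluster (GRCm38.p6, 250 bases before to 50 after the start, minus strand) are shown. Capitals mark GAGGAA, the core of sites bound by the myeloid factor PU.1, or its reverse complement TTCCTC.
C1qb chr4:136886151-136886450: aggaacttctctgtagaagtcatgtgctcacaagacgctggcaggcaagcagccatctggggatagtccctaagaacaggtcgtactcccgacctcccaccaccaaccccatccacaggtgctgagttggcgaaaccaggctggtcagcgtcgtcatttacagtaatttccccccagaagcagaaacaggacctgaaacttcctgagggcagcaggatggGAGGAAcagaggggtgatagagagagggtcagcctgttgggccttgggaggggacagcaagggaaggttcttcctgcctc
C1qc chr4:136892865-136893164: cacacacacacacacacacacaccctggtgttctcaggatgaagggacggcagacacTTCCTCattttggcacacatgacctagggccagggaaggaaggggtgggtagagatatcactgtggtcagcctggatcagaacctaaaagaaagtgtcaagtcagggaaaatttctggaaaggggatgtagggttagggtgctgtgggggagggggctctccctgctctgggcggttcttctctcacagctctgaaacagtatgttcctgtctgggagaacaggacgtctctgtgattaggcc
The motif begins 30 bases before the start of C1qb and 193 bases before that of C1qc. It was searched on both strands and occurs in 28.3% of 27025 promoters of the same length, so its presence in these promoters is a description only.

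The chains were also found together in single cells. A UMI of C1qa was present in 83.8% of sponge-labelled and 77.9% of GFP-labelled microglia, of C1qb in 78.5% of sponge-labelled and 68.9% of GFP-labelled, and of C1qc in 72.8% of sponge-labelled and 66.1% of GFP-labelled microglia. In rods, which should lack C1q, C1qa was seen in 6.96% of sponge-labelled and 3.83% of GFP-labelled cells. Rods had a median depth of 2345 UMIs in sponge-labelled and 1641 UMIs in GFP-labelled cells, and microglia of 2837.5 UMIs in sponge-labelled and 3039 UMIs in GFP-labelled cells. All 3 chains were seen in 466 of 712 microglia (65.4%) in the library labelled sponge and in 623 of 1185 (52.6%) in the library labelled GFP. With every cell thinned to 1000 UMIs these shares were 44.1% in the sponge-labelled and 18.5% in the GFP-labelled library. At that depth C1qa was seen in 75.6% of sponge-labelled and 56.2% of GFP-labelled microglia, and in 3.13% of sponge-labelled and 2.06% of GFP-labelled rods. The 10 richest cells held 14% of the C1qa UMIs of the class in the library labelled sponge and 9.23% in the library labelled GFP, so the levels did not rest on a few cells.

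Other transcripts of microglia were higher in the same direction. All 14 markers of the class had a log2 ratio above 0, with a median of 0.91 and a range of 0.16 for Adgre1 to 1.54 for Tmem119, and none was at 0 counts. Their sum was 12160 CPM in the library labelled sponge and 5999 CPM in the library labelled GFP. Per 100 UMIs of these markers there were 58.0 UMIs of C1q in the sponge-labelled and 40.6 in the GFP-labelled microglia. Transcripts of B and plasma cells also stood in this class, at 2384 CPM summed over 8 markers in the library labelled sponge and 272.9 CPM in the library labelled GFP, and their part in the result was not tested. A finer clustering put 342 sponge-labelled and 1002 GFP-labelled microglia in 1 cluster, and 369 sponge-labelled and 181 GFP-labelled ones in another, which leads with immunoglobulin genes. The naming rule left this other cluster unnamed, with microglia and macrophages, B and plasma cells and mast cells as rival types. Its 10 rod markers summed to 13470 CPM in sponge-labelled and 14540 CPM in GFP-labelled cells. C1qa had 4115 CPM in the sponge-labelled and 1234 CPM in the GFP-labelled cells of the cluster without these genes, and 1991 CPM in sponge-labelled and 663.2 CPM in GFP-labelled cells of the immunoglobulin-rich one. These levels cover all cells of each finer cluster, and the immunoglobulin-rich one held 436 sponge-labelled and 234 GFP-labelled cells in all. Cells with a UMI of P2ry12 or Tmem119, markers of resident microglia, had 4522 CPM of C1qa in the library labelled sponge and 1519 CPM in the library labelled GFP. Cells with Mrc1, a macrophage marker, and without those markers had 3514 CPM in the sponge-labelled and 1222 CPM in the GFP-labelled library. The difference in C1qa therefore had the same direction in each subset that was examined.

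Outside microglia the C1q chains stayed at a few percent of the microglial level or less. Over the other 19 classes and clusters C1qa stood at 0.146% to 1.56% of its microglial level in the library labelled sponge (median 0.475%) and at 1.09% to 2.90% in the library labelled GFP (median 1.77%). The highest of the 19 in both libraries was unnamed cluster 1, which leads with haemoglobin and rod genes, at 58.5 CPM in the library labelled sponge and 35.02 CPM in the library labelled GFP. The median of the 14 microglial markers, taken the same way, was 0.26% to 1.70% in the library labelled sponge and 1.28% to 3.69% in the library labelled GFP. C1qa lay below this median in 16 of the 19 in the library labelled sponge and in 17 of the 19 in the library labelled GFP. Unnamed cluster 13 was above it in both. There C1qa stood at 0.793% of its microglial level in the library labelled sponge, against a marker median of 0.625%. In the library labelled GFP it stood at 2.31% of that level, against a marker median of 2.24%.

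**Figure D2:**
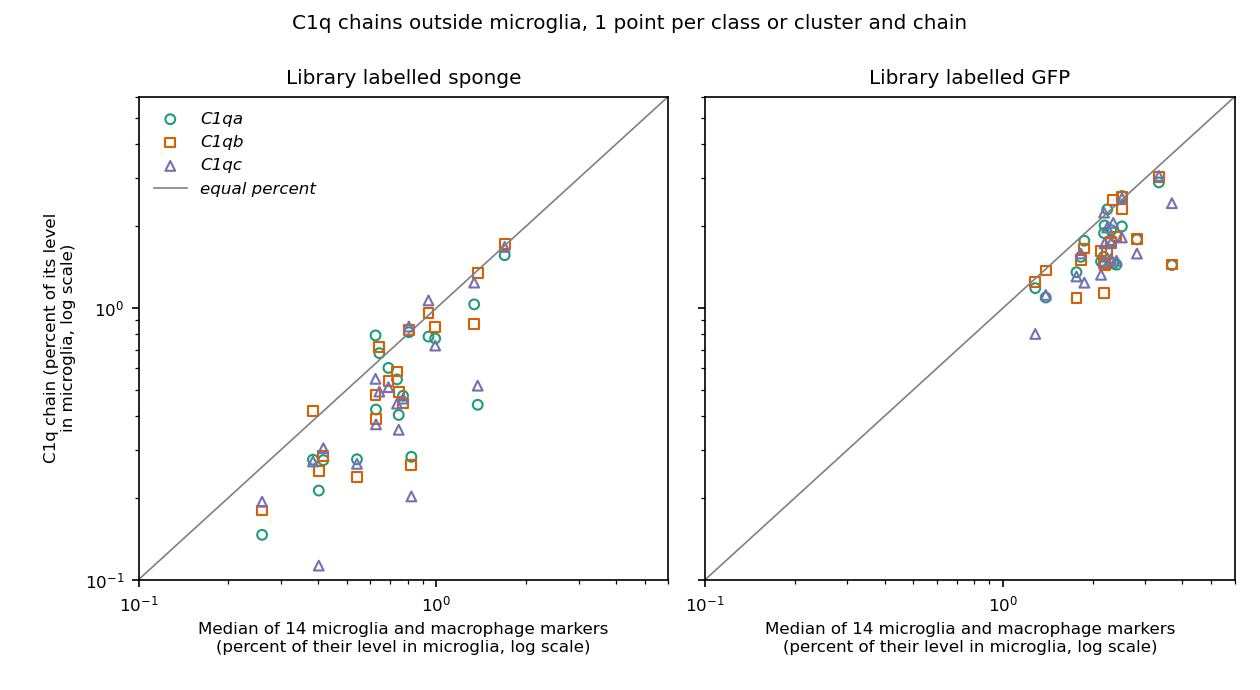
Level of each C1q chain outside microglia (vertical axis, percent of its level in microglia, log scale) against the median of 14 microglia and macrophage markers (horizontal axis, the same percent, log scale), with 1 point per class or cluster and chain and the grey line at equal percent. Most points lie at or under the line, and the points of the library labelled GFP on the right lie higher along it than those of the library labelled sponge on the left.

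Within microglia the other measured members differed in both directions. C3, the central component, had 59.6 CPM in the library labelled sponge and 25.5 CPM in the library labelled GFP (log2 ratio 1.22, 0.89 to 1.57). C4b had 91.1 CPM in sponge-labelled and 39.7 CPM in GFP-labelled cells (log2 ratio 1.20), and Cfb had 12.3 CPM in sponge-labelled and 4.41 CPM in GFP-labelled cells (log2 ratio 1.45, 0.68 to 2.34). The direction of Cfb turned when cells were thinned to 1000 UMIs (log2 ratio -0.39). The regulators were lower, with Serping1 at 30.8 CPM in the sponge-labelled and 48.5 CPM in the GFP-labelled microglia and Cd59a at 28.1 CPM in sponge-labelled and 49.7 CPM in GFP-labelled microglia. Serping1 thereby stood above its level in rods, 13.1 CPM in sponge-labelled and 22.9 CPM in GFP-labelled cells, and Cd59a below its level there, 64.0 CPM in sponge-labelled and 70.3 CPM in GFP-labelled cells. Cfi had 2 UMIs in the sponge-labelled and 7 in the GFP-labelled microglia, too few to compare. In all, 6 of the 8 measured members were at least 2-fold higher in the sponge-labelled microglia, where 4.32% of genes were, and 0 at least 2-fold lower, where 8.94% were. The median log2 ratio was 1.28 over these members and -0.08 over all measured genes.

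Few microglia carried C3. It was seen in 69 of 712 cells in the library labelled sponge and in 75 of 1185 in the library labelled GFP, and the 10 richest cells held 56% of its UMIs in the sponge-labelled and 28.8% in the GFP-labelled library. A single sponge-labelled cell held 54 of the 248 C3 UMIs. With cells weighted equally the log2 ratio of C3 was 0.43, and with cells thinned to 1000 UMIs 0.59. In the immunoglobulin-rich finer cluster it was -0.68, from 6 UMIs in the library labelled sponge and 4 in the library labelled GFP. Cfb was concentrated further, in 18 sponge-labelled and 15 GFP-labelled cells, and 10 cells held 84.3% of its UMIs in the sponge-labelled and 72.2% in the GFP-labelled library.

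C3 had different leading sources in the libraries. In the library labelled sponge its highest level was in microglia and macrophages (59.6 CPM, 52.4 to 67.5), then in fibroblasts (34.7 CPM, 29.9 to 40.0), ocular surface epithelium (17.2 CPM) and retinal pigment epithelium (11.3 CPM). In the library labelled GFP it was highest in Müller cluster 9 (64.1 CPM, 56.4 to 72.7), and fibroblasts (29.5 CPM), microglia (25.5 CPM) and unnamed cluster 20 (24.4 CPM) followed with intervals that overlap. By the mean of both libraries microglia led C3, but Müller cluster 9 led with cells weighted equally and fibroblasts with cells thinned to 1000 UMIs. The thinned share of sponge-labelled cells with C3 was 2.31% in microglia and 2.21% in fibroblasts. Rods, the gauge of free RNA, had 2.42 CPM in the library labelled sponge and 6.24 CPM in the library labelled GFP. In the library labelled sponge 7 classes and clusters had an interval wholly above that of rods, and in the library labelled GFP 5 had. Microglia held 24.3% of all C3 UMIs in the sponge-labelled and 7.32% in the GFP-labelled library, and the Müller clusters held 8.33% in the sponge-labelled and 20.5% in the GFP-labelled library. Of the UMIs of all genes, microglia held 3.16% in the sponge-labelled and 3.33% in the GFP-labelled library. The Müller clusters held 15.6% of them in the sponge-labelled and 9.09% in the GFP-labelled library. C3 lies on the minus strand at chr17:57203970-57228136 (mm10). Its promoter as RefSeq gives it (GRCm38.p6, minus strand) is shown because the gene differed in opposite directions between classes, and capitals mark the letters TTGCGAAA, a match to the pattern TTGCNNAA of sites for C/EBP factors.
C3 chr17:57228087-57228386: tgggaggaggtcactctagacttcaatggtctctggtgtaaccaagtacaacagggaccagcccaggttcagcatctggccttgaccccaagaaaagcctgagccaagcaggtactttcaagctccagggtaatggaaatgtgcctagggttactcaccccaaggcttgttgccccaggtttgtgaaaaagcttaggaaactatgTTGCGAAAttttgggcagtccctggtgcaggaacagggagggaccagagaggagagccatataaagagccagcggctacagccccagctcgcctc
The match begins 45 bases before the start and the pattern occurs, on either strand, in 10.8% of 27025 promoters.

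**Figure D3:**
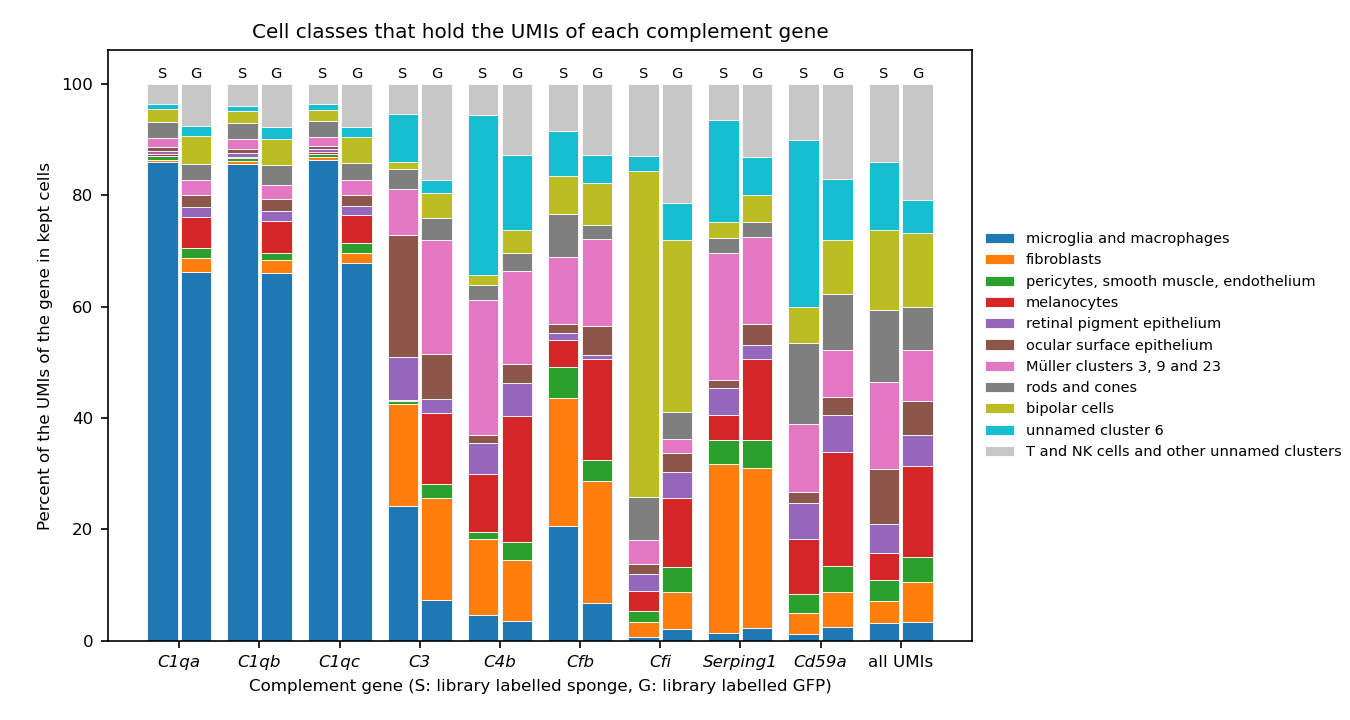
Share of each gene's UMIs (vertical axis, percent of the UMIs of the gene in kept cells) held by groups of classes, with 1 bar for the library labelled sponge (S) and 1 for the library labelled GFP (G) per gene and, at the right end, the shares of all UMIs. Microglia and macrophages hold 85.9% of C1qa in the library labelled sponge and 66.1% in the library labelled GFP, while bipolar cells hold 58.5% of Cfi in the library labelled sponge and 30.9% in the library labelled GFP.

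In Müller cluster 9, glia led by the injury-induced genes Lcn2 and Gfap, the second also an astrocyte marker, C3 was far lower in the library labelled sponge. It had 6.97 CPM there (58 UMIs in 29 of 854 cells) and 64.1 CPM in the library labelled GFP (247 UMIs in 141 of 1043 cells), a log2 ratio of -3.19 (-3.64 to -2.78). Cfb had 0.60 CPM in the sponge-labelled and 6.75 CPM in the GFP-labelled cells, from 5 sponge-labelled and 26 GFP-labelled UMIs. Serping1 was lower as well, at 82.2 CPM in the library labelled sponge and 261.5 CPM in the library labelled GFP (log2 ratio -1.67, -1.81 to -1.53). C4b and Cd59a differed little in the same cells, with 110.3 CPM of C4b in the sponge-labelled and 119.2 CPM in the GFP-labelled cells, and 58.6 CPM of Cd59a in sponge-labelled and 57.6 CPM in GFP-labelled cells. Thus 3 of the 8 measured members were at least 2-fold lower in the library labelled sponge, where 6.67% of genes were. The median log2 ratio was -0.79 over the members and 0.04 over all genes. All 13 Müller markers exceeded the median cluster 2-fold in this cluster, but 0 of them were among its 10 leading genes. The 13 Müller markers summed to 20880 CPM in the library labelled sponge and 12990 CPM in the library labelled GFP, and 11 of them were higher in the library labelled sponge. Median depth was 9899 UMIs per cell in the sponge-labelled and 3308 in the GFP-labelled cells, and its part was not tested.

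Müller cluster 23, led by the interferon-inducible genes Ly6a, Iigp1 and Igtp, held 324 cells in the library labelled sponge and 13 in the library labelled GFP, too few for a comparison. Its sponge-labelled cells had 284.6 CPM of Serping1 and 207.2 CPM of C4b but 3.29 CPM of C3. When clusters 9 and 23 were summed, C3 kept its direction, with 5.79 CPM in the library labelled sponge and 63.5 CPM in the library labelled GFP (log2 ratio -3.45), whereas the log2 ratio of Serping1 shrank to -0.85 and that of C4b was 0.21. In Müller cluster 3, C3 had 1.69 CPM in the sponge-labelled and 5.93 CPM in the GFP-labelled library. Neither value exceeded that of rods in its library. Serping1 had 20.7 CPM there in the library labelled sponge and 43.6 CPM in the library labelled GFP. These were the 2 of 8 measured members at least 2-fold lower in that cluster, where 8.38% of genes were. Most of its cells lay in different finer clusters, with 958 sponge-labelled and 263 GFP-labelled cells in finer cluster 19, and 164 sponge-labelled and 2422 GFP-labelled cells in finer cluster 4.

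C3 was also sparse in several classes of the library labelled sponge in which the library labelled GFP had some. Melanocytes had 3 UMIs (0.47 CPM) in the library labelled sponge and 182 UMIs (9.14 CPM) in the library labelled GFP, and bipolar cells had 13 UMIs (0.68 CPM) in the sponge-labelled and 65 UMIs (4.00 CPM) in the GFP-labelled library. Unnamed cluster 20, which carried both Müller and bipolar markers, had 1 UMI in the library labelled sponge and 82 in the library labelled GFP, a ratio whose log2 interval ran from -10.85 to -3.01. Unnamed cluster 19 had 0 UMIs in the library labelled sponge and 32 in the library labelled GFP. Its GFP-labelled level was 4.62-fold that of a floor of 3 counts in the library labelled sponge, which is not a counting bound. Cones had 0 UMIs in the sponge-labelled and 11 in the GFP-labelled library, under the 20 counts asked of a measured gene. On the same floor the fold was 3.3, and the log2 interval of the ratio reached up to -1.175. Except in unnamed cluster 20, these GFP-labelled levels lay between 4.00 and 9.47 CPM, beside the 6.24 CPM of rods in that library.

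**Figure D4:**
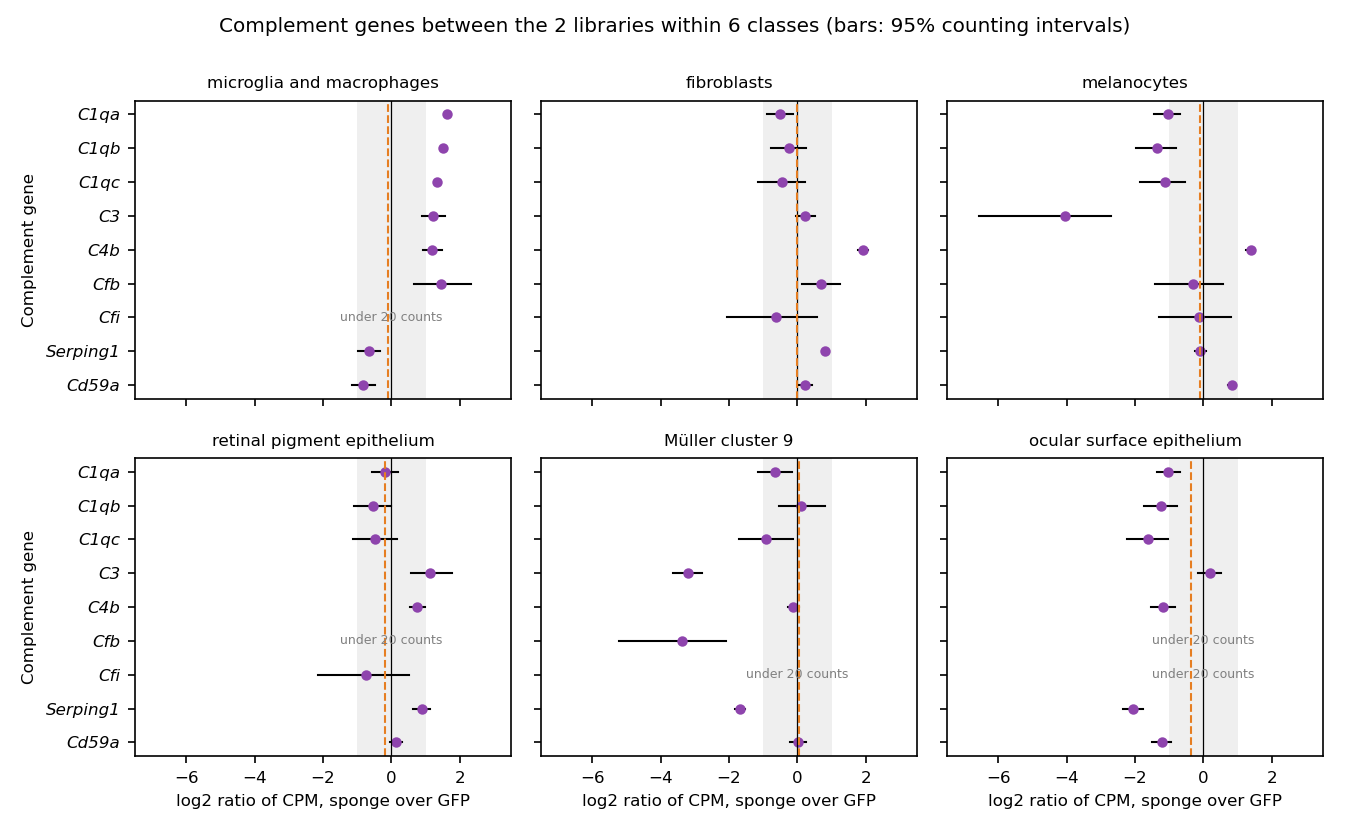
Log2 ratio of CPM, sponge-labelled over GFP-labelled (horizontal axis), for each complement gene (vertical axis) in 6 classes, with bars for the 95% counting interval, a dashed line at the median of all measured genes and grey shading within 2-fold. In microglia 6 members lie right of the shading, and in Müller cluster 9 C3, Cfb and Serping1 lie left of it.

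C4b, which is cleaved by C1s into the C4 fragments of the classical convertase, was highest, among the 20 classes and clusters compared, in fibroblasts in the library labelled sponge and in Müller cluster 9 in the library labelled GFP. Müller cluster 23, not compared, had a level in the library labelled sponge whose interval overlaps that of fibroblasts. Fibroblasts, 641 sponge-labelled and 3111 GFP-labelled cells, had 206.2 CPM in the library labelled sponge and 54.4 CPM in the library labelled GFP, a log2 ratio of 1.92 (1.77 to 2.08). A C4b UMI was seen in 52.7% of sponge-labelled and 12.2% of GFP-labelled fibroblasts, and after thinning to 1000 UMIs in 15.5% of sponge-labelled and 4.57% of GFP-labelled ones. In rods the thinned share was 1.35% of sponge-labelled and 1.58% of GFP-labelled cells. C4b was the 1 of 9 members at least 2-fold higher in sponge-labelled fibroblasts, where 6.2% of genes were. The fibroblasts fell into 3 finer clusters that the libraries filled differently, with 296, 63 and 281 sponge-labelled and 1668, 1082 and 328 GFP-labelled fibroblasts in finer clusters 9, 21 and 33. The values of these finer clusters cover all their cells, also those of other classes. C4b had 120.3 CPM in the sponge-labelled and 43.3 CPM in the GFP-labelled cells of finer cluster 9. It had 99.4 CPM in sponge-labelled and 45.4 CPM in GFP-labelled cells of finer cluster 21, and 327.1 CPM in sponge-labelled and 156.8 CPM in GFP-labelled cells of finer cluster 33. The log2 ratios within them were 1.47, 1.13 and 1.06, each smaller than the 1.92 of the whole class and in the same direction. Of the 10 fibroblast markers 9 were higher in the library labelled sponge, summing to 8933 CPM against 4309 CPM in the library labelled GFP, and plasma-cell markers summed to 261.7 CPM in sponge-labelled and 18.6 CPM in GFP-labelled cells of the class.

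Melanocytes and unnamed cluster 6, which carries melanocyte and smooth-muscle markers together, were the next sources of C4b. Melanocytes had 132.8 CPM in the library labelled sponge and 50.8 CPM in the library labelled GFP (log2 ratio 1.39, 1.25 to 1.52). C4b was 1 of 9 members at least 2-fold higher there, where 4.37% of genes were, while 4 of 9 members, C3 and the C1q chains, were at least 2-fold lower, where 7% were. Of these, C1qc turned direction when cells were thinned to 1000 UMIs (log2 ratio 1.01). Of the 2 clusters that make up the melanocytes, cluster 5 had 66.9 CPM in the sponge-labelled and 41.9 CPM in the GFP-labelled library and cluster 12 had 195.2 CPM in sponge-labelled and 84.0 CPM in GFP-labelled cells. Unnamed cluster 6 had 145.3 CPM in the library labelled sponge and 81.3 CPM in the library labelled GFP. The highest C4b level of any finer cluster was in finer cluster 41, 65 sponge-labelled and 89 GFP-labelled cells led by genes that include Gfap and S100b, with 513.2 CPM in the library labelled sponge and 203.6 CPM in the library labelled GFP. That cluster also had 27.4 CPM of C3 in the library labelled sponge and 99.8 CPM in the library labelled GFP, from 17 sponge-labelled and 25 GFP-labelled UMIs. C4b lies at chr17:34728380-34743882 (mm10, minus strand) beside its near-identical copy C4a, which had 0.43 CPM in the sponge-labelled and 0.45 CPM in the GFP-labelled library over all kept cells. Reads shared by both copies could be assigned to either or dropped, so the C4b values are uncertain to that extent.

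Cfb was scarce everywhere. In the library labelled sponge it was highest in microglia (12.3 CPM, 9.13 to 16.1) and fibroblasts (10.6 CPM, 8.05 to 13.8), whose intervals overlap. In the library labelled GFP Müller cluster 9 (6.75 CPM), fibroblasts (6.55 CPM) and microglia (4.41 CPM) had overlapping intervals. Rods had 1.21 CPM in the library labelled sponge and 0.42 CPM in the library labelled GFP. In fibroblasts the log2 ratio was 0.70 (0.14 to 1.25). Cfb lies at chr17:34856374-34862518 (mm10, minus strand) and shares 6107 bases with the longer annotated transcript Gm20547 on the same strand. Gm20547 is not among the features, and reads from the shared bases could not be told apart from that transcript's.

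Serping1, the inhibitor of C1r and C1s (chr2:84765387-84775444, mm10, minus strand), had its highest level in fibroblasts in both libraries, among the 20 classes and clusters compared. Fibroblasts had 489.6 CPM in the library labelled sponge and 280.0 CPM in the library labelled GFP (log2 ratio 0.81, 0.73 to 0.89). They held 30.3% of its UMIs in the sponge-labelled and 28.7% in the GFP-labelled library, against 4.07% and 7.21% of the UMIs of all genes. A UMI was seen in 87.4% of sponge-labelled and 46.4% of GFP-labelled fibroblasts, and after thinning in 38.2% of sponge-labelled and 22.9% of GFP-labelled ones, against 1.34% of sponge-labelled and 2.08% of GFP-labelled rods. Pericytes and smooth muscle had 230.6 CPM in the library labelled sponge and 149.8 CPM in the library labelled GFP. Müller cluster 23, not compared, stood above them in the library labelled sponge. In the library labelled GFP Müller cluster 9 stood at 261.5 CPM (245.6 to 278.2), an interval that overlaps that of fibroblasts (269.1 to 291.3). The sponge-labelled cells of Müller cluster 9 had only 82.2 CPM. The gene was thus higher in stroma and lower in these glia in the library labelled sponge, and the totals over all cells lay near parity. Within each finer fibroblast cluster Serping1 was higher in the library labelled sponge, with 619.8, 249.9 and 470.7 CPM in finer clusters 9, 21 and 33 against 344.8, 198.7 and 308.3 CPM in the library labelled GFP.

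Fibroblast C3 showed no such common direction. Over the class it had 34.7 CPM in the library labelled sponge and 29.5 CPM in the library labelled GFP, a log2 ratio of 0.23 (-0.05 to 0.51). In finer cluster 9 it had 83.2 CPM in the sponge-labelled and 40.6 CPM in the GFP-labelled cells, in finer cluster 21 it had 11.04 CPM in sponge-labelled and 22.8 CPM in GFP-labelled cells, and in finer cluster 33 it had 0.86 CPM in sponge-labelled and 3.20 CPM in GFP-labelled cells. The 10 richest cells held 72% of the C3 UMIs of sponge-labelled fibroblasts and 18% of those of GFP-labelled fibroblasts.

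**Figure D5:**
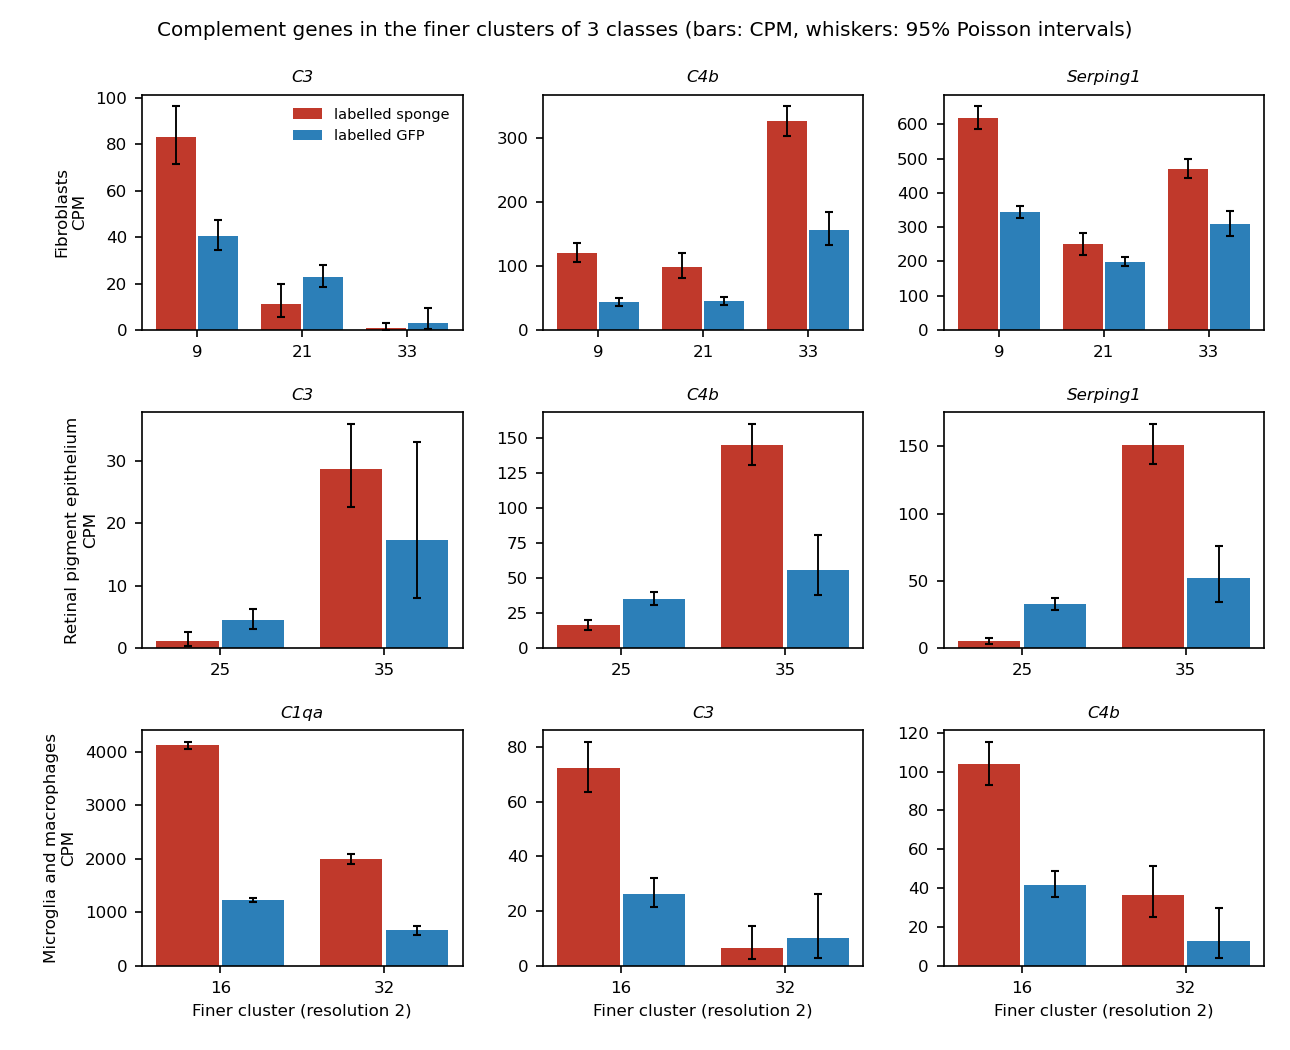
Level in CPM (vertical axis, starting at 0) of selected complement genes in the finer clusters (horizontal axis) of microglia, fibroblasts and retinal pigment epithelium, with bars for the library labelled sponge and the library labelled GFP side by side and whiskers for 95% Poisson intervals. C1qa is higher in the library labelled sponge in both microglial clusters. C3 differs in opposite directions between the finer clusters of a class, in some of them on few UMIs.

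Cfi (chr3:129835884-129875332, mm10, plus strand), whose product factor I inactivates C3b and C4b, was the 1 member led by neurons other than photoreceptors. Bipolar cells had 9.16 CPM in the library labelled sponge and 6.03 CPM in the library labelled GFP (log2 ratio 0.60, 0.24 to 0.98). They held 58.5% of its UMIs in the sponge-labelled and 30.9% in the GFP-labelled library, against 14.5% and 13.2% of the UMIs of all genes. It was seen in 141 of 3157 sponge-labelled (4.47%) and 97 of 6394 GFP-labelled bipolar cells (1.52%), against 0.26% of sponge-labelled and 0.27% of GFP-labelled rods. Within the class, cluster 2 carried most of it, with 165 of the 175 sponge-labelled UMIs and 79 of the 98 GFP-labelled UMIs. That cluster had 13.6 CPM in the library labelled sponge and 10.8 CPM in the library labelled GFP, and clusters 10, 11 and 17 had between 0.78 and 2.25 CPM in the library labelled sponge and between 0.51 and 2.81 CPM in the library labelled GFP. In rods Cfi had 1.14 CPM in the sponge-labelled and 1.66 CPM in the GFP-labelled library. The next class in the library labelled GFP was unnamed cluster 19, which also carries bipolar markers, at 5.63 CPM, and it had 4.10 CPM in the library labelled sponge. In the library labelled GFP the intervals of bipolar cells and unnamed cluster 19 overlap. In the library labelled sponge those of bipolar cells and unnamed cluster 20 (4.24 CPM) overlap. With cells thinned to 1000 UMIs unnamed cluster 19 led Cfi instead, at 7.75 CPM in sponge-labelled and 5.54 CPM in GFP-labelled cells.

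Cd59a, the membrane regulator (chr2:104095801-104115354, mm10, plus strand), was found in every class, at 14.8 to 213.4 CPM in the library labelled sponge and 34.4 to 136.5 CPM in the library labelled GFP. Cones led it, with 213.4 CPM in the library labelled sponge and 136.5 CPM in the library labelled GFP (log2 ratio 0.64, 0.43 to 0.86), and a UMI was seen in 46.9% of sponge-labelled and 24.4% of GFP-labelled cones. The interval of GFP-labelled cones overlaps that of GFP-labelled unnamed cluster 6, and with cells named one by one pericytes and smooth muscle led instead, at 235.9 CPM in sponge-labelled and 95.3 CPM in GFP-labelled cells. After thinning, the shares of cells with a Cd59a UMI were 17.6% in the sponge-labelled and 13.2% in the GFP-labelled cones, against 6.11% of sponge-labelled and 6.59% of GFP-labelled rods. Rods had 64.0 CPM in the library labelled sponge and 70.3 CPM in the library labelled GFP, so a rod level of this gene is not a background. Unnamed cluster 6 had 177.5 CPM in the sponge-labelled and 121.0 CPM in the GFP-labelled library, and melanocytes had 148.5 CPM in sponge-labelled and 82.7 CPM in GFP-labelled cells. The only member with a match to the miR-181 seed thus differed by a log2 ratio of 0.13 over all kept cells, and by -1.22 to 0.85 in the classes where it was measured with at least 100 UMIs in each library.

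In retinal pigment epithelium (RPE), the pigmented layer under the photoreceptors and the tissue nearest a subretinal injection, the members differed with the finer cluster. Over the 459 sponge-labelled and 928 GFP-labelled cells C4b had 64.0 CPM in the library labelled sponge and 37.9 CPM in the library labelled GFP, Serping1 had 59.3 CPM in sponge-labelled and 32.1 CPM in GFP-labelled cells, and C3 had 11.3 CPM in sponge-labelled and 5.06 CPM in GFP-labelled cells (log2 ratio 1.14, 0.56 to 1.77). C3 was the 1 of 8 measured members at least 2-fold higher, where 2.29% of genes were, and 10 cells held 87.3% of its UMIs in the library labelled sponge. Of the sponge-labelled RPE cells 295 lay in finer cluster 35, which leads with eGFP, Ly6a and Iigp1, and 769 of the GFP-labelled ones lay in finer cluster 25, which leads with Ttr, Rgr and Rpe65. In finer cluster 35 C4b had 145.1 CPM in the library labelled sponge and 56.1 CPM in the library labelled GFP, and Serping1 had 151.2 CPM in sponge-labelled and 52.2 CPM in GFP-labelled cells. In finer cluster 25 both were lower in the library labelled sponge, with C4b at 16.2 CPM against 35.1 CPM in the library labelled GFP and Serping1 at 5.25 CPM in sponge-labelled and 32.6 CPM in GFP-labelled cells. C4b and Serping1 thus differed in opposite directions in these finer clusters. The values cover all cells of a finer cluster and not RPE cells alone. Finer cluster 35 held 385 sponge-labelled and 219 GFP-labelled cells in all. C3 had 28.7 CPM in the sponge-labelled and 17.4 CPM in the GFP-labelled cells of finer cluster 35. In finer cluster 25 it had 1.09 CPM in sponge-labelled and 4.47 CPM in GFP-labelled cells, the second below the 6.24 CPM of GFP-labelled rods. Over the whole class C3 had 79 sponge-labelled and 35 GFP-labelled UMIs, so its values in the finer clusters rest on few UMIs.

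In ocular surface epithelium, 451 sponge-labelled and 1101 GFP-labelled cells, 6 of the 7 measured members were at least 2-fold lower in the library labelled sponge, where 23.5% of genes were. Serping1 had 10.1 CPM in the library labelled sponge and 41.9 CPM in the library labelled GFP, and Cd59a had 14.8 CPM in sponge-labelled and 34.4 CPM in GFP-labelled cells. C3 was the exception, with 17.2 CPM in the sponge-labelled and 15.2 CPM in the GFP-labelled library (log2 ratio 0.18, -0.14 to 0.52). It was seen in 16.9% of sponge-labelled and 7.36% of GFP-labelled cells. Median depth was 23179 UMIs per cell in the library labelled sponge and 5797 in the library labelled GFP, and the median log2 ratio of all genes was -0.37 in this class. Thinning to 1000 UMIs turned the direction of C1qc (log2 ratio 0.18) and Cd59a (0.32). Markers of other types were lower alongside, with the 11 RPE markers summing to 203.5 CPM in sponge-labelled and 2458 CPM in GFP-labelled cells and the 10 melanocyte markers to 505.8 CPM in sponge-labelled and 1555 CPM in GFP-labelled cells, and none of either list at 0. The 10 rod markers summed to 1446 CPM in sponge-labelled and 4006 CPM in GFP-labelled cells, and the part of these markers in the result was not tested.

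The other complement genes of a list of 50 were set beside the members, and 49 of them were among the features. Over all kept cells 41 were measured, of which 1 was at least 2-fold higher (3.48% of all genes were) and 2 at least 2-fold lower (2.73% of all genes) in the library labelled sponge. Of 30 genes with at least 100 UMIs over all kept cells, 7 had their highest level among the compared classes in microglia, as C1q did, and 5 in fibroblasts, as C4b and Serping1 did. In microglia these were receptors, the stabilizer of the alternative convertase and a recognition protein of the lectin pathway. C3ar1, the receptor for C3a, had 225.2 CPM in the library labelled sponge and 137.4 CPM in the library labelled GFP, and C5ar1, the receptor for C5a, had 86.8 CPM in sponge-labelled and 60.01 CPM in GFP-labelled cells. Itgam, Itgax and Itgb2, the chains of the complement receptors CR3 and CR4, had 138.5, 33.2 and 79.6 CPM in the library labelled sponge against 76.2, 13.5 and 38.2 CPM in the library labelled GFP. Cfp, or properdin, had 36.5 CPM in the sponge-labelled and 27.4 CPM in the GFP-labelled microglia, and the ficolin gene Fcna had 17.3 CPM in sponge-labelled and 9.80 CPM in GFP-labelled cells. Of 26 other complement genes measured in microglia 4 were at least 2-fold higher in the library labelled sponge, where 4.32% of all genes were, namely Itgax, Itgb2, C1rl and Vsig4, a macrophage receptor for C3b with 6.49 CPM in the sponge-labelled and 1.47 CPM in the GFP-labelled cells. The 5 at least 2-fold lower, where 8.94% of all genes were, were Csmd1, Susd4, Cd46, Masp2 and C1s1. Of these, Csmd1 had 28.4 CPM in the library labelled sponge and 74.7 CPM in the library labelled GFP, and its highest level was in unnamed cluster 7, at 299.0 CPM in sponge-labelled and 286.1 CPM in GFP-labelled cells.

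Fibroblasts led the proteases that C1q activates. C1s1 had 113.7 CPM in the library labelled sponge and 57.2 CPM in the library labelled GFP, and C1ra had 27.8 CPM in sponge-labelled and 15.4 CPM in GFP-labelled cells. C1rb had 13.2 CPM in sponge-labelled and 7.91 CPM in GFP-labelled cells, and C1s2 had 25.4 CPM in sponge-labelled and 10.8 CPM in GFP-labelled cells. Masp1, a protease of the lectin pathway, had 8.02 CPM in the sponge-labelled and 2.94 CPM in the GFP-labelled fibroblasts. The recognition chains and their proteases were thus highest in different classes, with C1s1 at 2.16 CPM in sponge-labelled and 5.14 CPM in GFP-labelled microglia. C7, a component of the membrane attack complex, had 8.76 CPM in the library labelled sponge (47 UMIs) and 0.68 CPM in the library labelled GFP (6 UMIs). Of 22 measured in fibroblasts, 4 were at least 2-fold higher (C7, Masp1, C1s2 and C1rl), where 6.2% of all genes were, and 1, Cr2, at least 2-fold lower, where 8.2% of all genes were, with 1.12 CPM in the sponge-labelled and 2.49 CPM in the GFP-labelled cells. In cones Vtn, the gene of vitronectin, which inhibits the terminal pathway, had 256.9 CPM in the library labelled sponge and 120.6 CPM in the library labelled GFP. Of all genes measured in cones 3.09% were at least 2-fold higher in the library labelled sponge. Masp2 and Csmd1 were at least 2-fold lower in sponge-labelled cones, where 4.98% of all genes were. In bipolar cells C3ar1 and Cd93 were the 2 of 20 measured at least 2-fold lower, where 6.54% of all genes were, each at under 2 CPM in both libraries.

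The genes whose pattern was most like each member's were sought over 40 points, 20 classes and clusters in each of the libraries, among 12616 genes on a log2(CPM + 1) scale. The points of a library share its free RNA and its depth, and Pearson's r is given as a description. C1qa was most like C1qc (r = 0.983), C1qb (0.974) and the lysozyme gene Lyz2 (0.972), and C1qb was also close to Aif1 (0.960), another myeloid gene. Serping1 was most like Pgf (0.899), Crispld2 (0.895) and Rarres2 (0.880). C4b was most like Timp2 (0.850), the interferon-induced gene Ifit3 (0.843) and Tmem176b (0.843). Cfi was most like Drd2 (0.787), Sebox (0.757) and Best3 (0.752), Cfb like Rnase4 (0.781), Col15a1 (0.734) and Scarb2 (0.724), and Cd59a like Gabarapl1 (0.789), Ppargc1a (0.722) and Ptpn21 (0.722). C3 had the weakest matches, Top1 (0.716), Mrpl52 (0.714) and Cltc (0.710).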

How the data were processed

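Single cells from the optic cup of injected Abca4KO eyes were profiled with 10x Genomics 3′ chemistry (version 3.1, per the labels). The deposited matrices hold whole UMI counts per gene and barcode as raw values. Cell Ranger 7.0.0 and the build mm10 are named in the submitters' processing notes. The calling of cells and the treatment of intronic reads are not stated in the sources used here. The deposited totals were 132067896 counts in the library labelled sponge and 123040365 counts in the library labelled GFP. The members and gene lists were chosen with earlier results of these data known.

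Cells were kept if they had 300 genes or more, 500 UMIs or more and no more than 25% of UMIs from mitochondrial genes. Scrublet, as built into scanpy 1.11.5, called 1 sponge-labelled cell and 0 GFP-labelled cells as doublets, so the caller did not work, and no doublets were removed. Both libraries were clustered together on 2000 variable genes from which all complement genes were left out, using Leiden at resolution 1 (leidenalg 0.10.2) on the graph of 15 neighbours from 30 principal components. This gave 27 clusters, and resolution 2 gave 44. Clusters were named for the type they resembled from marker lists. The rule, made once the clusters were known, asked for 3 or more markers that exceeded the median cluster 2-fold and for no rival type, and took haemoglobin genes as a rival only where at least 3 of them led. Müller clusters were kept apart because an astrocyte marker led cluster 9.

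Each class was summed within a library and scaled to CPM. A finer cluster was summed over all its cells, also those that lay in other classes. A gene counted as measured from 20 counts in the 2 libraries together. Log2 ratios are sponge-labelled over GFP-labelled, after adding 0.5 to both counts. Intervals are 95% intervals for counting error only: exact Poisson for CPM and exact binomial for ratios. With 1 library per condition no test was run. A library at 0 is set against a floor of 3 counts, which is not a counting interval. Thinning drew 1000 UMIs per cell and left out shallower cells. Ratios and their intervals were tried on simulated Poisson class sums with known folds, and thinning on simulated cells. Clustering, naming, free RNA and variation between cells or libraries were not part of that simulation. All 9 members are named. Other complement genes are named where they pass 2-fold in a class that leads a member or share a member's highest class, except that some genes are not reported here. Alternatives were a stricter cell filter, cells weighted equally, thinning, removal of the highest 10% of doublet scores, resolution 2, cells named one by one, complement genes left among the variable genes, median-of-ratios scaling, other folds and other count minimums. Sequences came from RefSeq and GENCODE M21, and RefSeq promoters were found for C1qb, C1qc, C3 and Cd59a. Clec7a was not analysed here.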

Additional observations from a re-analysis of the deposited data

Results flagged for a closer look

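Several members differed between the libraries in opposite directions in different classes, and the difference between classes was not tested. C1qa had a log2 ratio of 1.63 in microglia and -1.69 in unnamed cluster 19, and C1qb 1.51 and -1.40 in the same classes. In unnamed cluster 19 these rest on 8 sponge-labelled and 63 GFP-labelled UMIs of C1qa and on 5 sponge-labelled and 33 GFP-labelled UMIs of C1qb. C1qa and C1qb stood there at 0.146% and 0.18% of their microglial levels in the library labelled sponge, where the marker median was 0.26%. In the library labelled GFP they stood at 1.54% and 1.46%, against a marker median of 2.18%. C1qc had 1.34 in microglia and -1.62 in ocular surface epithelium. Its levels in that epithelium, 2.86 CPM in sponge-labelled and 8.83 CPM in GFP-labelled cells, lay below those of rods. Rods had 12.1 CPM of C1qc in the library labelled sponge and 10.1 CPM in the library labelled GFP. The part of free RNA in these C1q values was not tested. C3 had 1.22 in microglia and -4.95 in unnamed cluster 20, the second from 1 sponge-labelled and 82 GFP-labelled UMIs. C4b had 1.92 in fibroblasts and -1.18 in ocular surface epithelium. Cfb had 1.45 in microglia and -3.38 in Müller cluster 9, from 51 UMIs in sponge-labelled and 18 UMIs in GFP-labelled microglia and 5 UMIs in sponge-labelled and 26 UMIs in GFP-labelled cells of Müller cluster 9.

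The eGFP sequence, which no comparison used, had 5484 UMIs in the library labelled sponge and 12 in the library labelled GFP. The sources used here do not say which vector carries it, and every direction above follows the labels.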

How the results depend on the processing

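No paired analysis was possible because each condition is 1 library and nothing in the files ties a cell to a mouse. Of the members, 2 passed 2-fold over all kept cells, and a fold of 1.5 made this 4, all higher in the library labelled sponge. The class with the highest level was the same for 5 of 9 members at resolution 2, where C3 and C4b moved to finer cluster 41, Cfb to microglia and Cd59a to finer cluster 29. Over the classes 38 member levels passed 2-fold, and thinning to 1000 UMIs left 25. Of other complement genes 20 passed 2-fold in the leading classes, and a minimum of 100 counts left 7, since fewer genes were then measured. Of 55 single levels, 304 of 394 planned recalculations moved by less than the counting interval, 84 moved further and 6 changed direction. Of 64 recalculations added after seeing the data 24 stayed, 37 moved and 3 changed direction. In both counts a change of direction was recorded only for levels that were at least 2-fold apart in the main setting. Turns of smaller differences count as moved, such as those of C4b and Serping1 in RPE finer cluster 25. With cells named one by one the log2 ratio was -0.20 for C1qb in pericytes and smooth muscle and -0.38 for Cfb in rods. Thinning gave 1.01 for C1qc in melanocytes, 0.18 for C1qc and 0.32 for Cd59a in ocular surface epithelium, and -0.39 for Cfb in microglia. Finer clusters alone gave -0.68 for C3 and -1.21 for Cfb in the immunoglobulin-rich finer cluster, and -1.92 for C3 in RPE finer cluster 25. The cause was not tested. C1qa in microglia ranged from 1.36 to 1.74 over the alternatives. Median-of-ratios scaling moved the median of all genes by -0.48 in ocular surface epithelium, -0.21 in RPE, -0.14 in unnamed cluster 6 and 0.11 in unnamed cluster 1.

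Intervals cover counting alone and not mice, injections or dissociations. Cfb, Cfi and, outside its main classes, C3 rest on few UMIs in most classes, which limits the differences that can be seen there.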

Other observations

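In RPE the proteases of the C1 complex stood higher in the library labelled sponge, and these genes were chosen after their values were seen. C1s1 had 35.3 CPM in the sponge-labelled and 6.79 CPM in the GFP-labelled RPE, and C1ra had 14.8 CPM in sponge-labelled and 3.33 CPM in GFP-labelled cells. C1s2 had 4.27 CPM in sponge-labelled and 1.01 CPM in GFP-labelled cells, and C1rb had 4.84 CPM in sponge-labelled and 0.29 CPM in GFP-labelled cells, from 34 sponge-labelled and 2 GFP-labelled UMIs. Erythrocyte markers summed to 576.3 CPM in the sponge-labelled and 64.9 CPM in the GFP-labelled RPE, and their part was not tested.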
